A study of Mus musculus with 17 samples.

Results

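The 8 interferon regulatory factor genes Irf1, Irf2, Irf3, Irf4, Irf5, Irf7, Irf8 and Irf9 were followed across ChIP-seq peak lists of 5 transcription factors in mouse macrophages. They were chosen by name, and a peak was assigned to one of them when its summit was no more than 20 kb from the span of the gene on mm10/GRCm38. This gave 269 of the 144384 peaks in 16 lists, and the 8 genes were 8 of 21887 protein-coding genes of the annotation used. The cells were wild-type macrophages grown from C57BL/6 bone marrow and taken on day 7 of differentiation.

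Cells received IFNg (interferon gamma, 100 ng/ml) together with IL4 (interleukin 4, 10 ng/ml), IFNg alone, IL4 alone, or no treatment. STAT6, which the IL4 receptor activates, was mapped after 2 h of IFNg+IL4 and of IL4. IRF1, the AP-1 subunit JUNB and the leucine zipper factor CEBPB were mapped after 4 h of IFNg+IL4, after 4 h of IFNg, and in untreated cells. MYC was mapped after IFNg+IL4 for 4 h and 2 h, after IL4 for 4 h and 2 h, and in untreated cells. Each of these groups was 1 library, so every comparison describes a pair of libraries and no test was made.

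Interferon regulatory factors share a DNA-binding domain that recognises GAAA repeats, the core of the interferon-stimulated response element (ISRE). IRF1 and IRF2 were first known as an activator and an antagonist on the same sites. IRF3, IRF5 and IRF7 carry signals from sensors of microbial nucleic acid and from Toll-like receptors. IRF4 and IRF8 are lineage factors that bind with PU.1 or AP-1 partners. IRF9 is a DNA-binding protein of type I interferon signalling. Dimers of STAT proteins bind TTC and GAA separated by a few bases: the gamma-activated sequence (GAS) has a spacer of 3, and a spacer of 4 is favoured by STAT6.

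List length ranged from 244 peaks for untreated IRF1 to 24927 for STAT6 with IL4, and the recovered depth of the libraries was 0.329 to 1.55 times that of the input. No input peak lay near any of the 8 genes. Of 10 macrophage marker genes, 10 had a STAT6 peak with IFNg+IL4 and 10 with IL4. Of 10 markers of other cell types, 2 had one in each of these lists, Ms4a1 and Cd79a. The IRF1 library of IFNg+IL4 was 2.08 times as deep as that of IFNg, and the MYC libraries of IFNg+IL4 had 0.574 (2 h) and 0.42 (4 h) times the depth of those of IL4. How far depth sets the number of peaks in those pairs was not tested beyond the thinning given with the results. A peak's rank is its place within its own list by the authors' −log10 p, and its fold enrichment is the authors' value. A rank in one list and a rank in another show no change.

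Promoter windows of 4 genes are given first, picked after their values were seen. Irf1, Irf2 and Irf8 are the members whose window held both a motif match and summits. Of Prmt1, Scaf1 and Rras, neighbours of Irf3 with MYC summits in a window, Prmt1 is the one with an E-box. Each is the 250 bases before a RefSeq start site (GRCm38.p6), on the gene's own strand. Capitals mark exact matches to a motif: GAS in Irf1, then ISRE, GAS and a C/EBP motif in Irf2, a pair of GAS in Irf8, and an E-box, the MYC motif, in Prmt1. The windows are chr11:53769764-53770013 (plus strand), chr8:46739495-46739744 (plus), chr8:120736108-120736357 (plus) and chr7:44986421-44986670 (minus).
Irf1: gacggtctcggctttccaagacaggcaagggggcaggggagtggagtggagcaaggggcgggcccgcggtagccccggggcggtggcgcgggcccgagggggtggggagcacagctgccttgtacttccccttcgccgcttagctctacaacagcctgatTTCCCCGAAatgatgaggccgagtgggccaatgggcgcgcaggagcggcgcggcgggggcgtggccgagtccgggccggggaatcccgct
Irf2: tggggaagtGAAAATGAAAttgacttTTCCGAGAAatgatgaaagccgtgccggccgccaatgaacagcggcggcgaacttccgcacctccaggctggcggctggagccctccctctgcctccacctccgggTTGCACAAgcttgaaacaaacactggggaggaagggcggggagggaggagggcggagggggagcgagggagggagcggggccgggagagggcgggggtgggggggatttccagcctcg
Irf8: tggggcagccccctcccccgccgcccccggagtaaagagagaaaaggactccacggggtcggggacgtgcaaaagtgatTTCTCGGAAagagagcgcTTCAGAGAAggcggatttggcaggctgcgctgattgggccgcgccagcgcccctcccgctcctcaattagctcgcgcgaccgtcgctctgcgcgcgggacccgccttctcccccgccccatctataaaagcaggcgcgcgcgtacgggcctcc
Prmt1: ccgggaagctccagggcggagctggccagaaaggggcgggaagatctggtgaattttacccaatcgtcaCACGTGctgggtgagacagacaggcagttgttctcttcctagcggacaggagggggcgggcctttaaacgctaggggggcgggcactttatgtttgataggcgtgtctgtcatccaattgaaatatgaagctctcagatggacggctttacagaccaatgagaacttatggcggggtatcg

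Motifs were searched on both strands over windows of 300 bases, 250 before and 50 after each start site. The ISRE, spelled GAAANNGAAA, was in 3.35% of 21263 such windows and in 1 of 11 windows of the 8 genes, that of Irf2, where it read GAAAATGAAA at −241 to −232. GAS, spelled TTCNNNGAA, was in 7.69% of all windows. It was in 3 of the 11, at −90 to −82 in Irf1, −224 to −216 in Irf2, and −171 to −163 and −153 to −145 in Irf8. The STAT6-type motif TTCNNNNGAA (6.35% of all windows) occurred at Irf9, at bases 1 to 10 past the start. TTGCNNAA, the C/EBP motif (10.2%), occurred at Irf2, at −118 to −111. Neither the AP-1 motif TGANTCA (6.99%) nor the E-box CACGTG (7.84%) was in any of the 11 windows. A match describes letters and not a bound site, and in these windows none of the matches overlapped another.

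Members differed widely in how many factors and treatments were listed near them. Irf2, whose span of 108 kb is the longest of the 8, had 22 separate sites once overlapping peaks of all lists were merged. Irf1 had 15 sites, Irf8 had 11, Irf3 and Irf9 had 6 each, and Irf4, Irf5 and Irf7 had 4 each. Counted over all treatments, peaks of at least 2 factors were listed at 33 of the 72 sites, 45.8%, against 34% of all merged sites in the genome. All 5 factors were listed, though in different treatments, at 4 of the 72, 5.56%, against 0.65% of all sites. These 4 were the Irf2 promoter (chromosome 8, 46739179 to 46740413), a site 38.6 kb inside the Irf2 span (46777710 to 46778778), a site at −6.33 kb from Irf1 (chromosome 11, 53762719 to 53764652) and a site at −2.29 kb from Irf5 (chromosome 6, 29523965 to 29524637). Negative distances are upstream of the first start site, and the last pair of sites lay outside any protein-coding gene span. The Irf2 promoter is among them through 1 untreated JUNB peak with a −log10 q of 0.99 (rank 6789 of 9229), under the floor of 2 of the other lists. At −6.33 kb from Irf1 the JUNB peaks had a −log10 q of 2.72 with IFNg (rank 7390 of 7428) and 0.273 untreated. With a floor of 2 in all lists 3 sites had all 5 factors, 4.17%, against 0.606% of all, and with a floor of 5 there were 2, 2.99%, against 0.402% of all. The 2 were the site inside the Irf2 span and that at −2.29 kb from Irf5. A merged site can chain several summits, and lists with more peaks near a gene give it more chances to share.

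**Figure D1:**
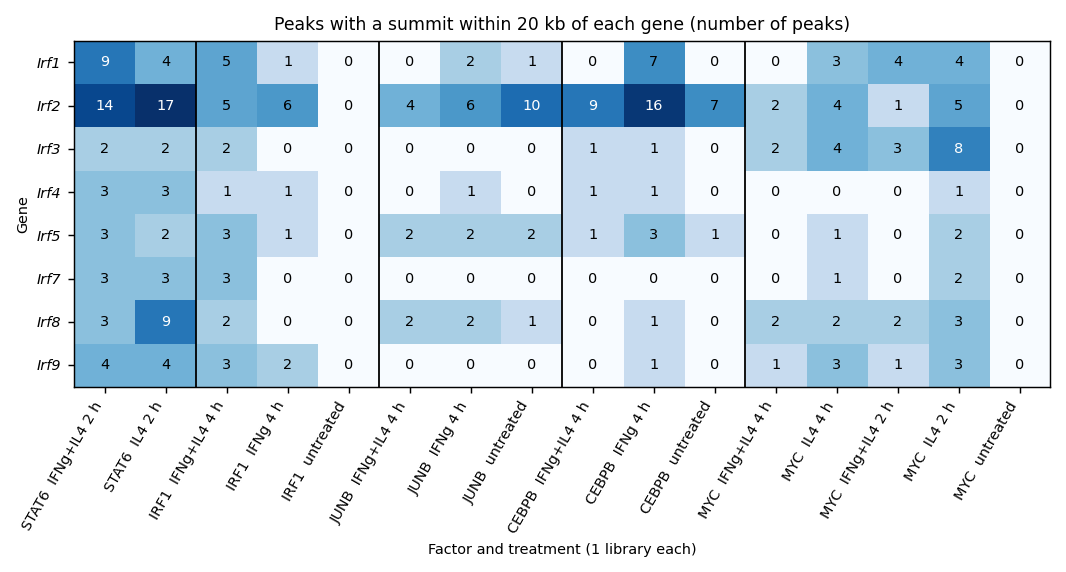
Number of peaks with a summit within 20 kb of each gene (rows) in each list (columns), grouped by factor, 1 library per column and darker blue for more peaks. Irf2 had 17 STAT6 peaks with IL4 and 16 CEBPB peaks with IFNg, and the untreated IRF1 and MYC lists had 0 peaks near every gene.

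**Figure D2:**
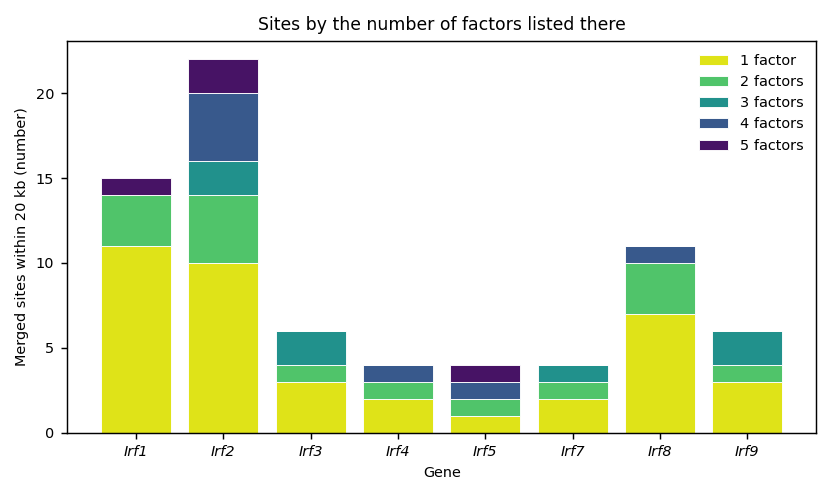
Merged sites within 20 kb of each gene (bars, number of sites), coloured by how many of the 5 factors had a peak there in any treatment. Sites where all 5 factors were listed over the treatments were at Irf1, Irf2 and Irf5, and the total ran from 4 sites at Irf4, Irf5 and Irf7 to 22 at Irf2.

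STAT6 was listed near all 8 genes with IFNg+IL4, where 46% of all genes had a STAT6 peak, and near all 8 with IL4, where 49.8% did. Gene length and expression were not matched in these shares of all genes. Counting only peaks nearest to a member's start site gave 7 genes in each list. The STAT6 peaks counted for Irf3 lay nearest to Prmt1 and Scaf1. Those for Irf9, apart from its promoter peak, lay nearest to Psme2 and Rnf31. The number of peaks near the members was 41 with IFNg+IL4 and 44 with IL4. Of the 41 IFNg+IL4 peaks, 34 overlapped a peak of the IL4 list by at least 1 bp, 82.9% (67.9 to 92.8%), against 80.3% of all IFNg+IL4 peaks. In the other direction 35 of the 44 IL4 peaks were kept, 79.5% (64.7 to 90.2%), against 68.7% of all. Intervals in parentheses are exact Clopper-Pearson 95% intervals that cover counting error only, and they treat peaks at one gene as independent. Over the 11 pairs 20 such shares could be computed near the 8 genes, and the interval of each held the share over all peaks of its list. The libraries had a depth of 1.08 (IFNg+IL4) and 1.13 (IL4) times the input.

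The peaks that differed sat at 3 genes. Near Irf1 there were 9 STAT6 peaks with IFNg+IL4 against 4 with IL4. All 4 were kept, and 6 of the 9 had no counterpart with IL4. Those 6 lay from +3.01 to +11.5 kb, inside the gene or just past its end, and each was among the weaker ones of its list, at rank 12241 to 19849 of 21481. Near Irf8 the balance was the other way, with 3 peaks with IFNg+IL4 against 9 with IL4, and 6 of the 9 were not kept. These 6 included the promoter peak at −0.206 kb and 4 peaks between +5.25 and +9.09 kb. They ranked from 11281 to 22701 of 24927. Near Irf2, 1 of 14 IFNg+IL4 peaks was new and 3 of 17 IL4 peaks were not kept. At Irf3, Irf4, Irf5, Irf7 and Irf9 every STAT6 peak of either list overlapped one of the other.

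Several of these genes had a STAT6 peak high in its list in both treatments. The peak 5.7 kb upstream of Irf1 ranked 116 of 21481 with IFNg+IL4 and 664 of 24927 with IL4, with a fold enrichment of 63.5 with IFNg+IL4 and 51.8 with IL4. The Irf2 promoter peak ranked 639 with IFNg+IL4 and 185 with IL4, and its summits, at −207 bp with IFNg+IL4 and −211 bp with IL4, fell a few bases downstream of the GAS printed above. The peak at −2.27 kb from Irf7, the interferon-amplifying member, ranked 325 with IFNg+IL4 and that at −2.25 kb ranked 377 with IL4. Inside Irf2 the sites at +38.7 and +49.9 kb ranked 273 and 363 with IFNg+IL4, and 551 and 437 with IL4. At the Irf7 promoter STAT6 had a summit at −0.015 kb with IFNg+IL4 (rank 7859) and at +0.349 kb with IL4, close to the end of that list (rank 24855). The Irf9 promoter was listed in both, at +0.154 kb with IFNg+IL4 (rank 6215) and +0.136 kb with IL4 (rank 5070), past the STAT6-type motif at the start of the transcript. Irf5 had no STAT6 peak at its promoter, and its pair of sites at −2.15 and +2.56 kb with IFNg+IL4 (rank 6372 and 7093) was matched at −2.18 and +2.56 kb with IL4 (rank 10882 and 8525).

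At Irf4, itself a gene induced by IL4, the 3 peaks at −10.7, about −4.6 and +26.8 kb were all kept, and the highest rank among them was 7715 with IFNg+IL4 and 8412 with IL4.

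**Figure D3:**
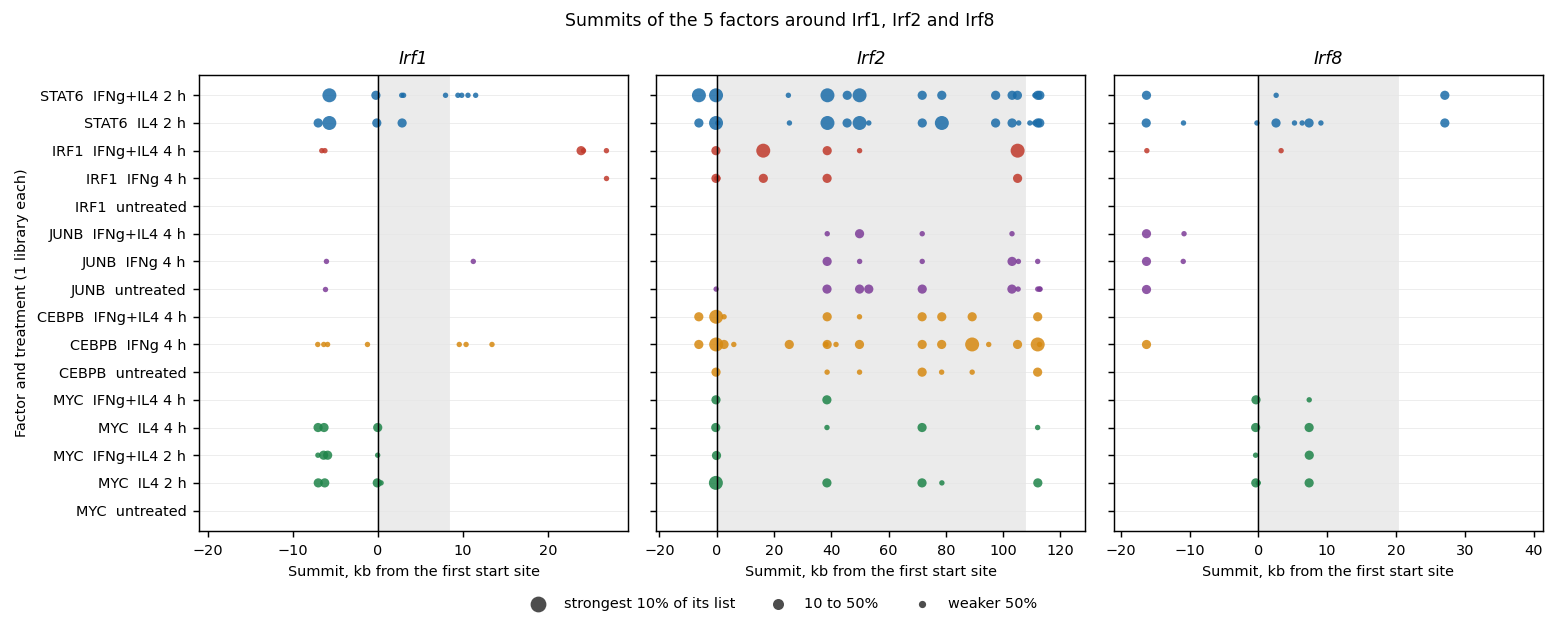
Summits near Irf1, Irf2 and Irf8 by distance in kb from the first start site (0, vertical line; negative is upstream), 1 row per list, gene span in grey, larger points for peaks ranked higher in their own list. STAT6 at Irf1 had 9 peaks with IFNg+IL4 and 4 with IL4, and at Irf8 it had 3 with IFNg+IL4 and 9 with IL4.

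IRF1 itself was listed near all 8 genes with IFNg+IL4, when 29.7% of all genes had an IRF1 peak, near 5 with IFNg (18% of all genes) and near none in untreated cells (2.47% of all genes). With IFNg the 5 genes were Irf1, Irf2, Irf4, Irf5 and Irf9. The 3 others, Irf3, Irf7 and Irf8, joined with IFNg+IL4. Peaks near the genes numbered 24 with IFNg+IL4, 11 with IFNg and 0 in untreated cells. Of the 24 IFNg+IL4 peaks, 9 had a counterpart with IFNg, 37.5% (18.8 to 59.4%), against 47.6% of all. All 11 peaks of IFNg had a counterpart with IFNg+IL4, 100% (71.5 to 100%), against 95.2% of all. None of the 11 IFNg peaks was in the untreated list, 0% (0 to 28.5%), against 5.54% of all IFNg peaks.

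The recovered depth of the 3 IRF1 libraries was 0.929 (IFNg+IL4), 0.446 (IFNg) and 1.54 (untreated) times that of the input. The untreated list, with no peak near the genes, had the highest recovered depth, a value read from 51.6% of its 244 peaks. The bearing of depth on the untreated list was not tested. When the IFNg+IL4 list was thinned to the depth of the IFNg library it held 5921 peaks in place of 8226, against 4189 with IFNg. After thinning 16 peaks lay near 7 of the genes. Of these 16, 9 had a counterpart with IFNg, 56.2%, against 37.5% before thinning. Shares over all thinned peaks and over all genes were not worked out, so the thinned values have no genome-wide comparison. Irf8 was the gene without an IRF1 peak after thinning. Its peaks at −16.2 and +3.31 kb ranked 7956 and 7631 of 8226.

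At its own gene IRF1 had no promoter peak in any list. With IFNg+IL4 the Irf1 window held 5 IRF1 peaks, at −6.59, −6.23, +23.9, +24.1 and +26.8 kb, against 1 with IFNg, at +26.8 kb, and none in untreated cells. The peak at +26.8 kb ranked 4392 of 8226 with IFNg+IL4 and 3155 of 4189 with IFNg, in the weaker part of both lists. The pair near −6.4 kb, ranked 7588 and 6375 with IFNg+IL4, lay within 1 kb of the STAT6 peak at −5.7 kb, where MYC, JUNB and CEBPB peaks were listed too.

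Irf2, the antagonist gene, had IRF1 at its promoter in both IFNg treatments. The summit was at −246 bp with IFNg+IL4 (rank 1105, fold 20) and at −231 bp with IFNg (rank 1266, fold 12.5), on either side of the ISRE at −241 to −232. There were 5 IRF1 peaks near Irf2 with IFNg+IL4 and 6 with IFNg, with 1 of the 5 and 3 of the 6 in the promoter. The site at +16.3 kb, where no other factor was listed, ranked 601 with IFNg+IL4 and 672 with IFNg. The one at +105 kb ranked 792 with IFNg+IL4 and 1275 with IFNg.

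At Irf4 and Irf5 the top IRF1 peak stood far from the promoter and ranked high. Irf4 had a single IRF1 peak, at −10.8 kb, with rank 366 of 8226 in IFNg+IL4 and 548 of 4189 in IFNg. STAT6 was listed at the same site in both of its treatments. Irf5, which acts downstream of Toll-like receptors, had its highest IRF1 peak at +30.7 kb, past the end of the gene and inside the span of Tnpo3. This peak had rank 384 in IFNg+IL4 and 695 in IFNg. With IFNg+IL4 Irf5 also had IRF1 peaks at −2.23 and +2.59 kb. Irf7 had 3 IRF1 peaks with IFNg+IL4 and none with IFNg, at +15.7, +0.337 and −2.67 kb, of which the first ranked 3011. The first of these lay inside the span of Phrf1 and the last inside that of Cdhr5.

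The IRF1 peaks assigned to Irf9 and Irf3 lay mostly at other genes. The highest near Irf9, at −13.1 kb with IFNg+IL4 (rank 305) and −13 kb with IFNg (rank 168), was nearest to the start site of Psme2, which encodes a subunit of the interferon-induced proteasome activator. At the Irf9 promoter IRF1 was listed with IFNg+IL4 alone, at +0.407 kb and rank 8167 of 8226. At Irf3 the 2 IRF1 peaks of IFNg+IL4 were nearest to the start sites of Prmt1, an arginine methyltransferase gene, and Scaf1, which encodes a splicing-related factor. Over all members, 62 of the 72 sites had one of the 8 genes as the nearest start site. The exceptions lay in the windows of Irf3 (4 of 6 sites; Prmt1, Scaf1 and Rras), Irf9 (5 of 6; Psme2 and Rnf31) and Irf5 (1 of 4; Kcp).

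**Figure D4:**
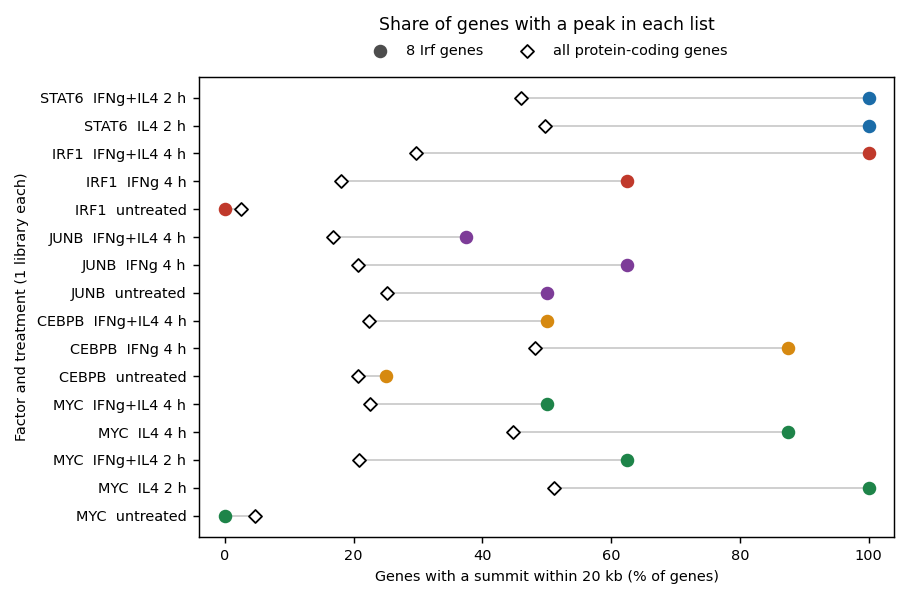
Share of genes with a summit within 20 kb in each list, for the 8 Irf genes (filled points, coloured by factor) and all 21887 protein-coding genes (open diamonds), 1 library per row. For IRF1 the 8 genes stood at 100% with IFNg+IL4, 62.5% with IFNg and 0% untreated, against 29.7%, 18% and 2.47% of all genes.

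CEBPB was listed near more of the genes with IFNg than in either other state. A CEBPB peak lay near 4 genes with IFNg+IL4 (22.4% of all genes), near 7 with IFNg (48.2%) and near 2 in untreated cells (20.7%). With IFNg+IL4 these were Irf2, Irf3, Irf4 and Irf5. With IFNg, Irf7 was the one without a peak, and in untreated cells Irf2 and Irf5 had one. The CEBPB peaks counted for Irf3 lay at the Rras promoter, and that for Irf9 within 1 kb of the Psme2 start site. The peaks numbered 12 with IFNg+IL4, 30 with IFNg and 8 untreated, and the libraries were 1.31 (IFNg+IL4), 1.33 (IFNg) and 1.46 (untreated) times as deep as the input.

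Of the 30 IFNg peaks 8 were in the untreated list, 26.7% (12.3 to 45.9%), against 25.6% of all. All 8 untreated CEBPB peaks were kept with IFNg, 100% (63.1 to 100%), against 99.9% of all. Of the 12 peaks of IFNg+IL4, 11 had a counterpart with IFNg, 91.7% (61.5 to 99.8%), against 97.5% of all. The exception was a peak at +26.9 kb from Irf4. In the other direction 11 of the 30 peaks of IFNg had one with IFNg+IL4, 36.7% (19.9 to 56.1%), against 28.2% of all.

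Near Irf1 there were 0 CEBPB peaks with IFNg+IL4, 7 with IFNg and 0 untreated. The 7 were weak ones, ranked 13956 to 21489 of 21499, and they lay from −7.07 to +13.4 kb. Near Irf2 there were 9 with IFNg+IL4, 16 with IFNg and 7 untreated. Its promoter peak ranked 466 of 6278 with IFNg+IL4, 1201 of 21499 with IFNg and 1757 of 5540 untreated, with summits at −158 bp (IFNg+IL4), −164 bp (IFNg) and −213 bp (untreated). The C/EBP motif of that window lies at −118 to −111. At Irf8 a single CEBPB peak was listed, with IFNg, 16.3 kb upstream where STAT6, IRF1 and JUNB were also listed. At Irf5 the peak near −2.5 kb was in all 3 lists, at rank 2237 with IFNg+IL4, 2647 with IFNg and 4085 untreated.

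JUNB was listed near 3 genes with IFNg+IL4 (16.8% of all genes), near 5 with IFNg (20.7%) and near 4 in untreated cells (25.2%). Irf2, Irf5 and Irf8 had a JUNB peak in all 3 lists, Irf1 with IFNg and in untreated cells, and Irf4 with IFNg. There was no JUNB peak near Irf3, Irf7 or Irf9. Of the 13 IFNg peaks 10 were in the untreated list, 76.9% (46.2 to 95%), against 58.7% of all. Of the 14 untreated peaks 10 were kept with IFNg, 71.4% (41.9 to 91.6%), against 46.9% of all. The untreated list had a looser threshold than the others, and its peak near Irf1 had a −log10 q of 0.273. At a −log10 q of at least 2, 6 of 7 untreated peaks were kept with IFNg, 85.7%. In the other direction 6 of the 13 IFNg peaks were in the untreated list, 46.2%.

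All 8 JUNB peaks of IFNg+IL4 had a counterpart with IFNg, 100% (63.1 to 100%), against 82.9% of all. Of the 13 peaks of IFNg, 8 had one with IFNg+IL4, 61.5% (31.6 to 86.1%), against 62% of all. The 5 not kept were 2 near Irf1, 2 near Irf2 and 1 near Irf4, all at rank 5401 or weaker of 7428. The JUNB peak ranked highest was inside Irf5, at +2.56 kb, where the rank was 1033 of 5556 with IFNg+IL4, 707 of 7428 with IFNg (+2.57 kb) and 398 of 9229 untreated. STAT6, IRF1 and MYC were listed at the same place. At −16.3 kb from Irf8 the JUNB rank was 1442 with IFNg+IL4, 1790 with IFNg and 1363 untreated.

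**Figure D5:**
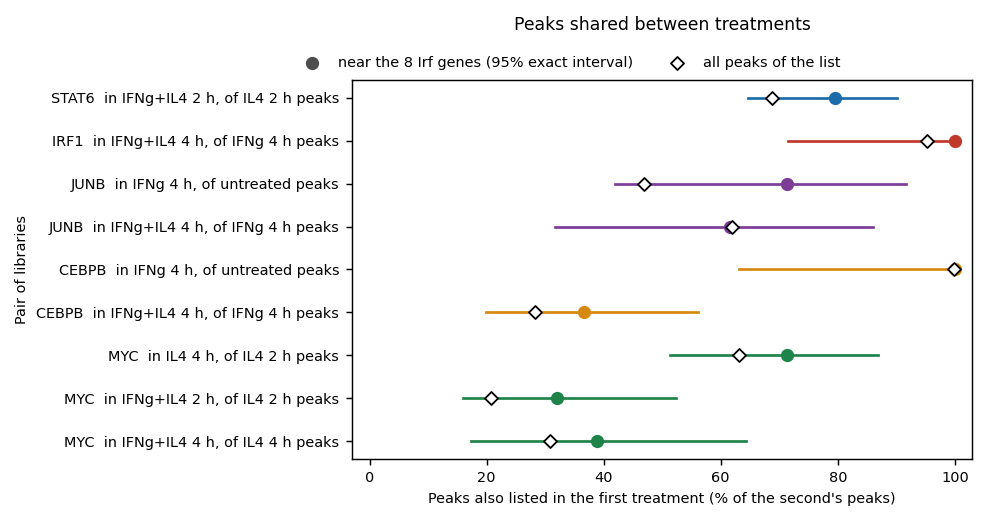
Percentage of the second treatment's peaks that overlapped a peak of the first, for peaks near the 8 Irf genes (filled points, with exact 95% intervals for counting error) and for all peaks of the list (open diamonds), 1 row per pair of libraries. For STAT6 it was 79.5% near the genes against 68.7% of all IL4 peaks, and each interval holds the share over all peaks.

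MYC was listed near some of the genes in every cytokine list and near none in untreated cells. With IFNg+IL4 a MYC peak lay near 4 genes at 4 h, where 22.6% of all genes had one, and near 5 at 2 h (20.9%). With IL4 one lay near 7 at 4 h (44.8%) and near all 8 at 2 h (51.1%). In untreated cells it was 0 of the 8, against 4.72% of all genes. The IFNg+IL4 list lacked Irf1, Irf4, Irf5 and Irf7 at 4 h, and Irf4, Irf5 and Irf7 at 2 h. The genes near which MYC was listed in all 4 cytokine lists were Irf2, Irf3, Irf8 and Irf9.

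Every IFNg+IL4 peak of MYC near the genes was in the matching IL4 list, 11 of 11 at 2 h (71.5 to 100%; 97.3% of all) and 7 of 7 at 4 h (59 to 100%; 93.9% of all). Of the 28 IL4 peaks at 2 h, 9 were kept with IFNg+IL4, 32.1% (15.9 to 52.4%), against 20.8% of all. At 4 h it was 7 of 18, 38.9% (17.3 to 64.3%), against 30.8% of all. The IL4 libraries were the deeper ones. With IFNg+IL4 the lists had 11 peaks near the genes at 2 h and 7 at 4 h. The IL4 lists thinned to the same depth had 21 near 6 genes and 13 near 5 genes. Of these thinned IL4 peaks, 9 of 21 were kept with IFNg+IL4 at 2 h, 42.9%, and 7 of 13 at 4 h, 53.8%. The matching shares over all thinned peaks were not worked out. As a whole the thinned IL4 lists were also longer, with 9595 peaks at 2 h against 3034 with IFNg+IL4. At 4 h it was 5446 against 3402. Over time with IL4, all 18 peaks of 4 h were in the 2 h list, 100% (81.5 to 100%), against 87.8% of all. Of the 28 peaks of 2 h, 20 were kept at 4 h, 71.4% (51.3 to 86.8%), against 63.1% of all. None of the 28 was in the untreated list, 0% (0 to 12.3%), against 3.57% of all. The depth of these libraries was 0.573 (IL4, 2 h) and 0.555 (untreated) times that of the input.

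MYC summits sat close to start sites at several members. At Irf2 they lay between −0.31 and −0.235 kb in the 4 cytokine lists, with rank 610 of 3402 (IFNg+IL4, 4 h), 1621 of 9645 (IL4, 4 h), 1138 of 3034 (IFNg+IL4, 2 h) and 816 of 13211 (IL4, 2 h). The Irf1 promoter had a summit at −32 bp with IFNg+IL4 at 2 h, at −26 bp with IL4 at 4 h and at −80 bp with IL4 at 2 h, and none with IFNg+IL4 at 4 h. The GAS of that window lies at −90 to −82. STAT6 summits at this promoter lay upstream of that GAS, at −241 bp with IFNg+IL4 (rank 4934 of 21481) and −135 bp with IL4 (rank 9506 of 24927). Irf8 had MYC in all 4 lists both near −0.4 kb and at about +7.4 kb inside the gene, where the rank was 1815 (IFNg+IL4, 4 h), 1120 (IL4, 4 h), 1192 (IFNg+IL4, 2 h) and 1364 (IL4, 2 h). At Irf9 the promoter was listed with IFNg+IL4 at neither time and with IL4 at both.

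Around Irf3 there were 17 MYC peaks over the lists, more than for any other member, but the Irf3 promoter itself was listed once, with IL4 at 2 h (+0.056 kb, rank 6718 of 13211). Apart from that peak and one at +1.16 kb in the same list, they lay nearest to the start sites of Prmt1, Scaf1 or Rras. The E-box of the Prmt1 window spans −181 to −176. A MYC summit of IL4 at 2 h fell at −171 (rank 7138 of 13211) and one of IL4 at 4 h at −216 (rank 8501 of 9645). Higher-ranked MYC summits lay past the Prmt1 start site, at +395 with IL4 at 2 h (rank 1784) and +344 at 4 h (rank 1414). The windows of Scaf1 and Rras held MYC summits but no E-box. At the start site of Scaf1 the MYC rank was 1362 of 3402 with IFNg+IL4 and 2142 of 9645 with IL4 at 4 h, and 1233 of 13211 with IL4 at 2 h.

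A list of 20 genes that act with these factors was set beside them. IRF1 peaks lay near 10 of the 20 with IFNg+IL4 (29.7% of all genes had one), 7 with IFNg (18% of all) and 0 untreated (2.47% of all). Those in both IFNg lists included Tbk1, the kinase that phosphorylates IRF3, Stat2, a factor of type I interferon signalling, Spi1, which encodes PU.1, the co-regulator gene Irf2bpl and Ifnb1, the interferon beta gene. Irak4, a Toll-like receptor kinase gene, had one with IFNg alone. Listed with IFNg+IL4 and not with IFNg were Tmem173, the gene of the DNA-sensing adaptor STING, the kinase gene Irak1, Batf3, an AP-1 partner gene, and Irf2bp2.

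STAT6 peaks lay near 17 of the 20 genes with IFNg+IL4, against 46% of all genes, and near 17 with IL4, against 49.8% of all. Irak1 had one with IFNg+IL4 alone and Traf3, an adaptor gene upstream of IRF3, with IL4 alone. Each of the 20 had a peak in at least 1 of the 16 lists. Near Ifnb1 there were 2 IRF1 peaks with IFNg+IL4, 2 with IFNg and 0 untreated. JUNB had 2 peaks there in each of its 3 lists, CEBPB had 1 with IFNg+IL4, 2 with IFNg and 1 untreated, and MYC had none in any list.

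For each member the genes with the most similar numbers of peaks over the 16 lists were found by the sum of absolute differences. Of genes that tied, those first in alphabetical order are named, 3 for each member. As close as the last one named were 14 genes for Irf4, 10 each for Irf3 and Irf7, 7 each for Irf1 and Irf9, and 3 each for Irf2, Irf5 and Irf8. For Irf1 those named were Hk2 and Zmynd8, each differing by 14 peaks, and Ggta1, differing by 16, and for Irf8 Parp2, Prkar1b and Znrf2, differing by 8. Irf2, with 106 peaks, had the largest sums, and Mbnl1 differed from it by 21, Dock4 by 26 and Trps1 by 27. The sums were not scaled to the number of peaks of a gene. For Irf4 these included Slamf6 and Zcwpw2, differing by 2, and Ahcyl1, by 3. For Irf5 they were Heatr4, Il1rn and Psen2, each by 3. For Irf7 these included Orc4, differing by 2, and Ccdc82 and Cstf3, by 3. Among those for Irf3 were 1700020D05Rik, Cfl1 and Ehmt2, by 7, and among those for Irf9 Eefsec, by 4, and E2f3 and Fem1b, by 5. Genes with few peaks are close to many others, so a small sum there says little.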

How the data were processed

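The data were 17 ChIP-seq libraries, 16 for 5 factors and 1 input, from bone marrow-derived macrophages, with 1 library for each factor, treatment and time given in the labels. Per the submitters' processing notes, the aligner was Bowtie2 2.2.6, the peak caller MACS2 2.1.0.20150731 and the build mm10/GRCm38. Settings of either tool were not given in the sources used here. Each list was called from a single library. Fold enrichment, as deposited, is a ratio of ChIP signal to control at the summit. The authors' peak caller also gave each peak the deposited −log10 p and −log10 q. As its values show, the deposited score equals 10 times the −log10 q, or 10 times the −log10 p in untreated JUNB, whose threshold was looser. The last deposited column gave the summit offset from the peak's start.

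Peaks outside the autosomes and the X and Y chromosomes and peaks overlapping an input peak were removed, together 0 to 39 per list. Gene assignment used summits up to 20 kb from the span. A peak counted as kept when it shared at least 1 bp with any peak of the second list. Peaks of all lists that overlapped by at least 1 bp were merged into sites. A promoter was within 1 kb of a start site. Exons and introns were not told apart, although the design had foreseen it, and no motif was searched at distal summits, since no genome was used here. Start sites and promoter sequences came from RefSeq tables of GRCm38. Of the protein-coding genes, 4395 had no start site there and took no part in nearest start sites. Depth relative to the input was recovered from the steps of fold and −log10 p in up to 2000 peaks per list, which assumes 1 common input. Thinning scaled pileup and background to the depth of the other library. The code was tested on simulated peaks.

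No test was made, as each group was 1 library, and p-values of peaks were used within lists alone. All 8 members were named, with genes of nearest start sites, pathway genes that differed between the lists of an IRF1 or STAT6 pair, and 3 genes closest to each member in peak numbers, taken in alphabetical order among ties and leaving out genes within 100 kb. The peaks of 1 pathway gene are not reported here. The members, gene lists, motifs and alternatives were chosen with earlier results of these data known. Python 3.11.15, pandas 2.3.3, numpy 2.4.6, scipy 1.17.1 and matplotlib 3.10.9 were used.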

Additional observations from a re-analysis of the deposited data

How the results depend on the processing

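Each group was 1 library, so no value here has a replicate check, and the main shares rest on 7 to 44 peaks. Shares under the alternatives can rest on fewer peaks. For untreated JUNB peaks kept with IFNg it was 6 at a −log10 q of at least 5, and 4 without peaks near Irf2. The number of members with a peak was within 1.5 times of the main number in all 16 lists at a −log10 q of at least 5 and with input-overlapping peaks left in. A window of 5 kb gave 5 members for IRF1 with IFNg+IL4 and 1 with IFNg, 3 for JUNB with IFNg and 2 untreated, and 2 for CEBPB with IFNg+IL4 and 3 with IFNg. For MYC with IFNg+IL4 it gave 2 at 4 h and 3 at 2 h. A window of 50 kb gave 1 member for untreated IRF1 and 5 for untreated CEBPB. Counting only peaks nearest to a member's start site gave 2 at 4 h and 3 at 2 h for MYC with IFNg+IL4.

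A reciprocal overlap of at least 50% moved the share of IFNg IRF1 peaks kept with IFNg+IL4 to 54.5%, of untreated CEBPB peaks kept with IFNg to 37.5%, of IFNg CEBPB peaks in the untreated list to 10% and of IFNg+IL4 CEBPB peaks in the IFNg list to 58.3%. For MYC it gave 18.2% of IFNg+IL4 peaks in the IL4 list and 7.14% of IL4 peaks kept at 2 h, and 57.1% of IFNg+IL4 peaks in the IL4 list at 4 h. Within their counting intervals, it also gave 22.2% of IL4 MYC peaks kept at 4 h and 23.3% of IFNg CEBPB peaks kept with IFNg+IL4. Summits within 100 bp gave 54.5% of IFNg+IL4 MYC peaks in the IL4 list at 2 h.

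With lists of equal length, 80% of IFNg+IL4 IRF1 peaks were in the IFNg list, 88.9% of IFNg JUNB peaks were kept with IFNg+IL4, 77.8% of IFNg CEBPB peaks were in the untreated list and 100% of IFNg CEBPB peaks were kept with IFNg+IL4. For MYC at 2 h, 63.6% of IFNg+IL4 peaks were in the IL4 list and 62.5% of IL4 peaks were kept, and 71.4% were kept at 4 h. Equal length leaves fewer peaks, so these shares rest on the stronger part of the longer list.

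At a −log10 q of at least 5, 100% of untreated JUNB peaks were kept with IFNg. With the untreated JUNB list at a −log10 q of at least 2, 46.2% of IFNg JUNB peaks were in it. A window of 5 kb gave 100% of IFNg+IL4 CEBPB peaks in the IFNg list and, within the interval, 44.4% of IFNg CEBPB peaks in the untreated list. A window of 50 kb gave 13.3% of IFNg IRF1 peaks in the untreated list. With peaks under a −log10 q of 5 left out of all lists, 2 sites had all 5 factors. Without peaks near Irf2, an alternative chosen after seeing the data like the nearest start site, the thinning and the floors on sites, 100% of untreated JUNB peaks were kept with IFNg, 7.14% of IFNg CEBPB peaks were in the untreated list and 14.3% were kept with IFNg+IL4. Where no construction is named, the cause of a moved value was not tested. Motifs in windows of 100 bp around summits were not run. No paired analysis was possible because each group was 1 library.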
